A study of Mus musculus with 9 samples.

Results

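The annexin family was followed here through 8 genes, Anxa1, Anxa2, Anxa3, Anxa4, Anxa5, Anxa6, Anxa7 and Anxa11, of the 19057 named genes on a mouse bead array. The genes were chosen by symbol, and the choice rests partly on a measured value, the difference in Anxa1 between the NUP98-CDX1 and NUP98-CDX4 cells. For that reason Anxa1 is described without a test in each fusion, and no test is given for any gene between the fusions. The cells were bone marrow cells of C57/B6 mice 6 to 8 weeks old given 5-FU, which kills cycling cells and leaves a marrow rich in primitive cells. In 3 groups of 3 samples the cells were transfected with NUP98-CDX1, with NUP98-CDX4 or, as the control, with EGFP, a green fluorescent protein. Both fusions join part of a nuclear pore protein to a caudal-type homeobox transcription factor, and all groups were cultured with stem cell factor and IL-6. The labels do not say whether replicates were separate animals or cultures, and the p-values cover only the spread among these 9 samples.

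Annexins are proteins that bind negatively charged membrane lipids, phosphatidylserine among them, when calcium rises. They take part in membrane repair, vesicle traffic and the ordering of the cell cortex, and several form complexes with small EF-hand proteins such as the S100 family. Anxa1 is abundant in neutrophils, monocytes and mast cells, where it is induced by glucocorticoids and acts through formyl peptide receptors to help end inflammation. Anxa3 is an abundant protein of the neutrophil granule membrane and cytosol.

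Each array detected 17257 to 19300 of its 45281 probes, and detection on at least 3 of the 9 arrays left 19472 probes. The members had 18 probes, of which 14 passed this filter, at least 1 for each gene, and all 14 were detected on all 9 arrays. The other 4, a further probe each of Anxa4, Anxa6, Anxa7 and Anxa11, were detected on 0 arrays and are not used. Values are normalized log2 intensities, so a difference of 1 is a 2-fold difference, and levels are compared only within a probe. Precision is limited by having 3 arrays a group.

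The arrays fell into a brighter and a dimmer set by the signals of probes detected on no array. The brighter set held replicates 1 and 2 of EGFP, replicate 3 of NUP98-CDX1, and replicates 1 and 3 of NUP98-CDX4. EGFP and NUP98-CDX4 therefore hold the same mix of sets, while NUP98-CDX1 does not. Xist, an RNA of female cells, was detected on 0 EGFP, 1 NUP98-CDX1 and 2 NUP98-CDX4 arrays, so replicates of 1 group differed in it. The cells expressed Kit and Cd34, genes of primitive blood cells, and the pan-leukocyte gene Ptprc on all 9 arrays. The array cannot check the fusions, since Cdx4 was detected on 1 array and the brighter Cdx1 probe on 5, at 4.69 to 5.98. A day number, whose meaning is not stated, also differed by group in the column names (EGFP 21, NUP98-CDX1 28, NUP98-CDX4 17 or 20), so day and group cannot be told apart.

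Anxa1 was lowest in the NUP98-CDX4 cells, intermediate in the NUP98-CDX1 cells and highest with EGFP. The log2 intensity of its probe, ILMN_1259252, was 9.04, 9.23 and 9.04 on the EGFP arrays. It was 8.93, 8.74 and 8.85 on the NUP98-CDX1 arrays and 7.58, 7.67 and 7.71 on the NUP98-CDX4 arrays. The NUP98-CDX4 arrays lay far below all others, while NUP98-CDX1 and EGFP lay close to each other without overlapping. The group means were 9.10 ± 0.11 for EGFP, 8.84 ± 0.09 for NUP98-CDX1 and 7.66 ± 0.07 for NUP98-CDX4 (SD, n = 3). Anxa1 was thus 2.73-fold lower in NUP98-CDX4 than with EGFP, a log2 difference of -1.45, and 1.2-fold lower in NUP98-CDX1, a log2 difference of -0.26. Between the fusions the log2 difference was -1.19, or 2.28-fold, which is the value the genes were chosen on.

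The part of Xist and of array set in the Anxa1 difference was not tested, and Xist was detected on 0 EGFP arrays. NUP98-CDX1 replicate 1, with Xist, read 8.93, and the NUP98-CDX1 arrays without Xist read 8.74 and 8.85. NUP98-CDX4 replicate 3, without Xist, read 7.71, and the NUP98-CDX4 arrays with Xist read 7.58 and 7.67. The log2 difference of NUP98-CDX4 from EGFP was -1.49 in the arrays of the brighter set alone and -1.37 in the dimmer set.

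Anxa1 was tested in the mean of both fusions against EGFP, which with 3 arrays in each group is orthogonal to the difference between the fusions. It uses the same fusion arrays, and most of its size comes from NUP98-CDX4 (-1.45, against -0.26 in NUP98-CDX1). Both contrasts also share 1 estimate of the spread, and a gene chosen for a clear fusion difference tends to have a small one. The adjusted p may therefore be too small. Across the fusions Anxa1 fell by 0.85 on the log2 scale, or 1.81-fold (95% interval 1.5 to 2.18), with a limma adjusted p of 0.00458. All 6 fusion arrays lay below all 3 EGFP arrays. Within the dimmer set alone, with 1 EGFP array, the log2 difference was -0.79 and the adjusted p 0.20. Of the 14 member probes, Anxa1 was the 1 that passed in this comparison, where 3.92% of all probes passed in either direction and 1.99% were lower, and nothing is read from this count because Anxa1 led to the choice of genes.

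**Figure D1:**
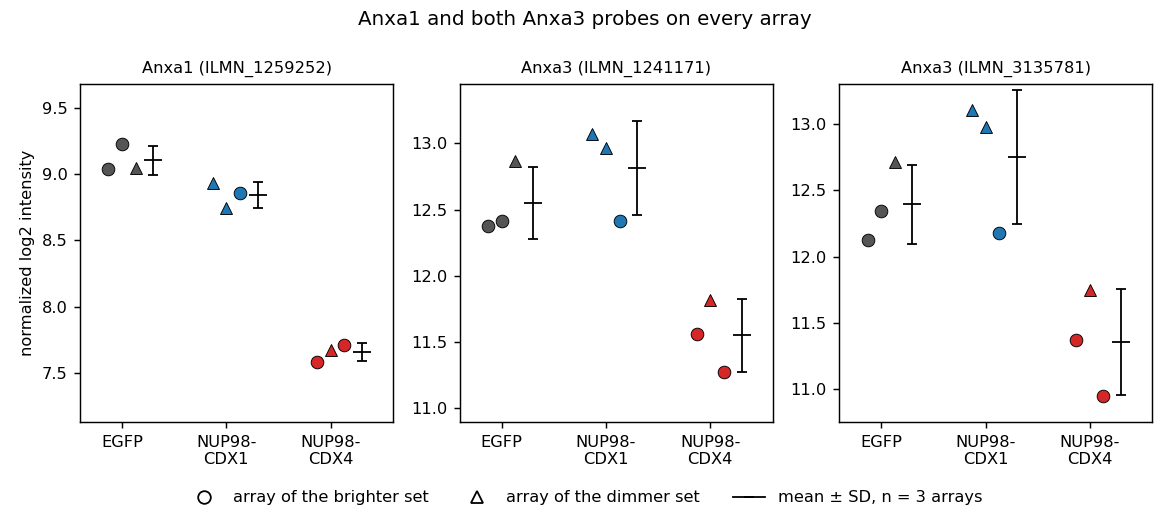
Normalized log2 intensity of the Anxa1 probe and both Anxa3 probes on each of the 9 arrays, with circles for the brighter and triangles for the dimmer array set and bars for the mean ± SD of 3 arrays. The NUP98-CDX4 arrays lie at 7.58 to 7.71 for Anxa1, below the NUP98-CDX1 arrays at 8.74 to 8.93 and the EGFP arrays at 9.04 to 9.23.

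The promoter window of Anxa1 is shown because the fusions carry the DNA-binding part of CDX factors, which bind sites with the core TTTAT, and that of Anxa2 because it is the other member window with a TATA box. Each window runs from 250 bases before to 50 bases after the RefSeq start site of GRCm38.p6, at chr19:20390622-20390921 on the minus strand for Anxa1 and chr9:69453433-69453732 on the plus strand for Anxa2. Capitals mark TTTAT or its reverse complement ATAAA and the TATA box TATAAA.
Anxa1: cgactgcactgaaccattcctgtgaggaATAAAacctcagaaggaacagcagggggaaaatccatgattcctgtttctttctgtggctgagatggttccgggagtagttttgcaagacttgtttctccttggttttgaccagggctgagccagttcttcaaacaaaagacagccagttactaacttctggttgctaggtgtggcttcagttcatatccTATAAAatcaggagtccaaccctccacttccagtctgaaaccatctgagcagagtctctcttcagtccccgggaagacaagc
Anxa2: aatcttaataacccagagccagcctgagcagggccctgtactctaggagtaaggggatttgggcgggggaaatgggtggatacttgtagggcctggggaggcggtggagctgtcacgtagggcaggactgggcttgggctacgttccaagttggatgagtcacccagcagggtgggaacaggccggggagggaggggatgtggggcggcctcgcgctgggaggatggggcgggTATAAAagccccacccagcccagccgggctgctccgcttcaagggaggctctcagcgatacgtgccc
The Anxa1 window held ATAAA at -222 and again at -31, counted in bases from the start site, the latter inside a TATA box that begins at -32. In Anxa2 the single ATAAA, at -16, also lay inside the TATA box, which began at -17. The letters TATAAA contain ATAAA, so each TATA box is also counted as a match to the core.

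Of the 8 members, 6 had a promoter entry and Anxa3 and Anxa6 had none. The window of Anxa11 held ATAAA at -179 without a TATA box, and those of Anxa4, Anxa5 and Anxa7 held neither motif. Of 32851 mouse promoter windows, 40% held TTTAT on either strand and 13.6% held TATAAA, all of which are among the 40%. The glucocorticoid receptor half-site TGTTCT, or AGAACA on the other strand, was in 19% of all windows and in 1 window of Anxa4, at -199 and -18. The CCAAT box, searched as CCAAT or ATTGG, was in 37.4% of all windows and in none of the members with an entry. A match describes letters in the window and is not a measured binding site.

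Anxa3 was bright in all groups and lower with NUP98-CDX4 on both of its probes. The log2 intensity of ILMN_1241171 was 12.38, 12.42 and 12.86 on the EGFP arrays, 13.08, 12.96 and 12.41 on the NUP98-CDX1 arrays, and 11.56, 11.82 and 11.27 on the NUP98-CDX4 arrays. All NUP98-CDX4 arrays lay below all other arrays, while NUP98-CDX1 and EGFP overlapped. By this probe Anxa3 fell 2.00-fold in NUP98-CDX4 against EGFP (95% interval 1.39 to 2.87), a log2 difference of -1.0 with a limma adjusted p of 0.0407. The second probe, ILMN_3135781, gave 12.13, 12.34 and 12.71 with EGFP, 13.10, 12.97 and 12.18 with NUP98-CDX1, and 11.37, 11.75 and 10.95 with NUP98-CDX4. It had the same order of groups and no overlap of NUP98-CDX4 with the others, with a log2 difference of -1.04 and an adjusted p of 0.0883, so it did not pass.

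The call on Anxa3 was close to the threshold. With array set as a block the adjusted p was 0.000458 for the first probe and 0.0014 for the second, and the log2 difference of the first probe was -0.98 within the brighter and -1.05 within the dimmer set. With 1 array left out it ran from -1.14 to -0.84, and the adjusted p from 0.0233 to 0.147. It missed the threshold without any 1 of the EGFP arrays (0.0805, 0.104 and 0.119), without NUP98-CDX4 replicate 1 (0.117) or 3 (0.147), and without NUP98-CDX1 replicate 1 (0.0548) or 2 (0.0632). In NUP98-CDX1 the log2 differences of Anxa3 from EGFP were 0.27 and 0.36 by its probes, with adjusted p of 0.722 and 0.711. Between the fusions they were -1.27 and -1.40, given as a description.

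Anxa4 had lower means in both fusions by both of its probes, and neither probe passed. Its brighter probe, ILMN_2772410, read 7.86, 7.64 and 7.76 on the EGFP arrays, 7.50, 7.24 and 7.55 with NUP98-CDX1 and 7.53, 6.99 and 7.42 with NUP98-CDX4. Each fusion array lay below each EGFP array, and the fusions overlapped. The log2 difference from EGFP was -0.32 in NUP98-CDX1 (95% interval -0.72 to 0.08, adjusted p = 0.591) and -0.44 in NUP98-CDX4 (-0.84 to -0.04, adjusted p = 0.273) by limma. The second probe, ILMN_2935012, gave log2 differences of -0.16 and -0.40, with adjusted p of 0.732 and 0.209. Anxa4 is an annexin found mostly in epithelia, and its second probe read 5.83 to 6.43, near the lowest signals detected on an array, 5.18 to 5.45.

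Anxa2, which binds S100a10 and serves as a docking site for plasminogen at the cell surface, had a bright probe that read 13.58, 13.22 and 13.32 with EGFP. ILMN_2657175 gave 13.52, 13.70 and 13.60 with NUP98-CDX1 and 13.61, 13.78 and 13.73 with NUP98-CDX4. The NUP98-CDX4 arrays lay above the EGFP arrays by a margin of 0.03, and NUP98-CDX1 overlapped both. The log2 differences from EGFP were 0.23 (adjusted p = 0.652) and 0.33 (95% interval -0.01 to 0.67, adjusted p = 0.352) by limma, in NUP98-CDX1 and NUP98-CDX4. The dim probe ILMN_1233117 gave -0.08 and -0.02.

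Anxa5, the annexin whose binding to phosphatidylserine is used to stain dying cells, read 11.70, 11.78 and 12.07 with EGFP by its only probe, ILMN_2680142. It read 12.10, 12.19 and 12.17 with NUP98-CDX1 and 11.97, 12.08 and 11.87 with NUP98-CDX4. The NUP98-CDX1 arrays lay just above both other groups, which overlapped each other. The log2 difference from EGFP was 0.30 in NUP98-CDX1 (95% interval -0.04 to 0.64, adjusted p = 0.535) and 0.12 in NUP98-CDX4 (-0.21 to 0.46, adjusted p = 0.884) by limma.

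Anxa6, a large annexin of endosomes and the plasma membrane with a doubled annexin core, followed array set rather than group. ILMN_2878060 read 11.76, 11.60, 11.60 and 11.52 on the arrays of the dimmer set and 10.55 to 11.09 on those of the brighter set. Its log2 difference from EGFP was 0.20 in NUP98-CDX1 and -0.11 in NUP98-CDX4, with adjusted p of 0.839 and 0.976, and with array set as a block the first became -0.05. The dim probe ILMN_1241363 gave 0.30 and 0.32, with adjusted p of 0.730 and 0.777.

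Anxa7, also called synexin, and Anxa11, an annexin with a long flexible head that can ride on RNA granules, had no probe that passed. The brighter Anxa7 probe, ILMN_2561575, read 7.18 to 7.46 with EGFP, 7.36 to 7.50 with NUP98-CDX1 and 7.14 to 7.69 with NUP98-CDX4, and the groups overlapped. Its log2 differences from EGFP were 0.14 and 0.10 (95% interval in NUP98-CDX4 -0.29 to 0.50), and its other probe, ILMN_1246887, gave -0.20 and -0.15. The brighter Anxa11 probe, ILMN_3107156, read 10.58 to 10.96 with EGFP, 10.88 to 11.08 with NUP98-CDX1 and 10.72 to 10.85 with NUP98-CDX4. Its log2 differences were 0.17 and 0.01 (interval in NUP98-CDX4 -0.33 to 0.35), and its other probe, ILMN_2666669, gave 0.17 and 0.07. The 95% intervals of these probes in the single fusions reached down to -0.66 and up to 0.67 on the log2 scale.

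**Figure D2:**
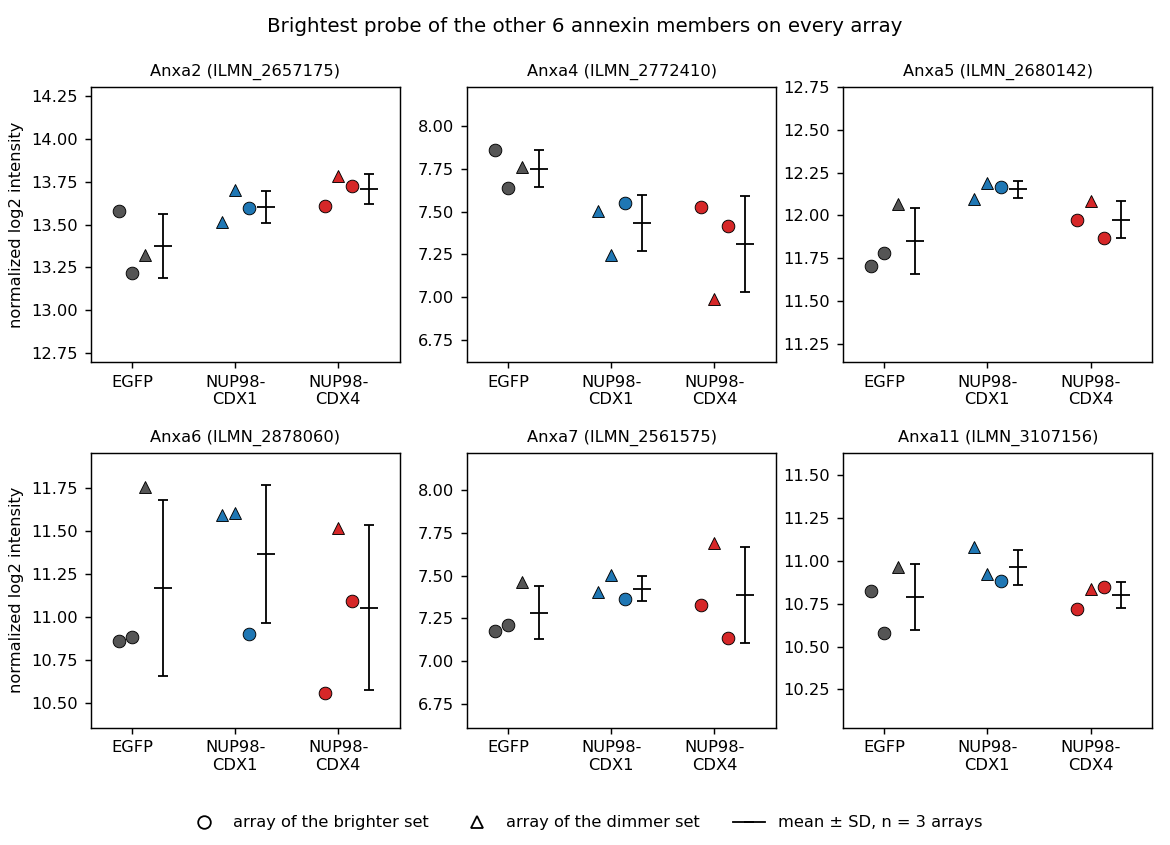
Normalized log2 intensity of the brightest probe of Anxa2, Anxa4, Anxa5, Anxa6, Anxa7 and Anxa11 on each of the 9 arrays, drawn as for Anxa1 and Anxa3. Only Anxa4 has all 6 fusion arrays below the EGFP arrays, and the dimmer-set arrays of Anxa6 (triangles) lie above its brighter-set arrays in every group.

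Counted over the family, 0 of 13 tested member probes passed in NUP98-CDX1 against EGFP by limma, where 0.899% of all probes passed, and 0 of the 13 had an unadjusted p under 0.05. In NUP98-CDX4 1 of 13 passed, the Anxa3 probe ILMN_1241171, where 4.85% of all probes passed in either direction and 2.74% were lower. There 4 of the 13 had an unadjusted p under 0.05, both probes of Anxa3 and both used probes of Anxa4. The share of all probes at that unadjusted level was not counted, so nothing is read from the unadjusted counts. With array set as a block, 0, 2 and 3 member probes passed in NUP98-CDX1, NUP98-CDX4 and the mean of both, where 4.82%, 15.1% and 13.4% of all probes passed. The members' shares were near those of all probes, so the counts show nothing particular to the family. The median log2 difference of the 14 probes was 0.17 in NUP98-CDX1 and -0.07 in NUP98-CDX4, against 0.01 and 0.02 over all probes.

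For several member probes the groups did not overlap. In NUP98-CDX4 against EGFP, 1 probe (Anxa2) lay wholly higher and 5 wholly lower (Anxa1, both of Anxa3 and both of Anxa4), where 10.9% and 9.09% of all probes did so. In NUP98-CDX1, 1 lay wholly higher (Anxa5) and 2 wholly lower (Anxa1 and Anxa4), where 8.54% and 6.05% of all probes did so. Between the fusions, 0 lay wholly higher in NUP98-CDX4 and 5 wholly lower, namely those of Anxa1, Anxa3, Anxa5 and the brighter probe of Anxa11, where the shares of all probes were 4.42% and 5.17%. The genes were chosen on this contrast through Anxa1, so nothing is read from that count, and Anxa1 stands in the other counts of lower probes too. Both comparisons with EGFP share the EGFP arrays.

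**Figure D3:**
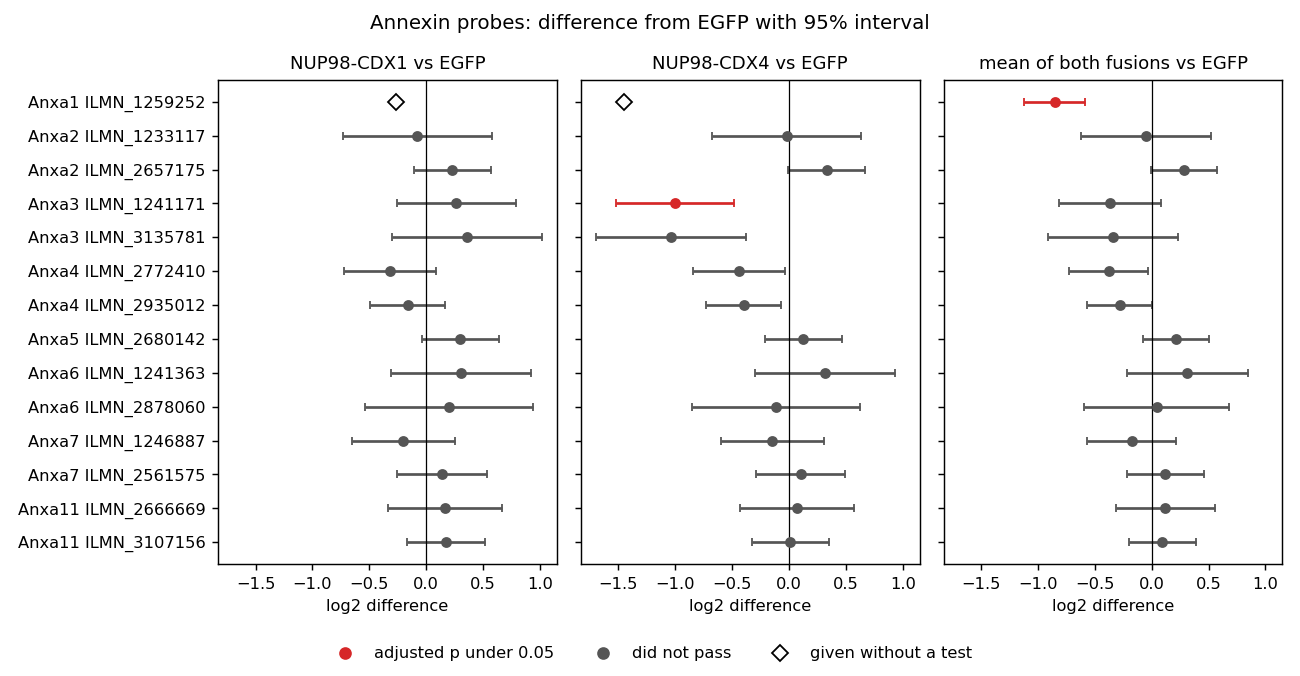
Log2 difference from EGFP of the 14 member probes for each fusion and for the mean of both, with 95% intervals. Filled red points have a limma adjusted p under 0.05, and diamonds mark Anxa1 where it is given without a test. Anxa1 at -0.85 in the mean and Anxa3 at -1.0 in NUP98-CDX4 are the 2 probes that passed.

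Across the 9 arrays the members did not rise and fall together. Between brightest probes, the Pearson correlation with Anxa1 was 0.833 for Anxa3, 0.606 for Anxa4 and -0.70 for Anxa2, and it was between -0.18 and 0.20 for the other members. These are descriptions over 9 arrays that share groups and array sets. Anxa5, Anxa6 and Anxa7 went together more than with Anxa1, at 0.557 to 0.756.

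The genes whose values were most like Anxa1 over the 9 arrays, among 9714 named genes, were Mogat2 (Pearson r = 0.982), Cpa3 (0.975), Cd200r3 (0.968), Rgcc (0.967) and Clec4d (0.964). Cpa3 encodes a mast cell granule protease, Cd200r3 a receptor of mast cells and basophils and Clec4d a lectin receptor of myeloid cells. All 5 genes had their lowest mean with NUP98-CDX4, as Anxa1 did. That fall is part of the difference the members were chosen on, so the likeness is a description and no cell type is read from it. Cpa3 had mean log2 intensities of 11.79 with EGFP, 11.68 with NUP98-CDX1 and 8.73 with NUP98-CDX4, the same order as Anxa1 with a wider gap. Those most like Anxa3 were Lpcat2 (0.982), an enzyme that makes platelet-activating factor, Fcgr2b (0.981), an inhibitory antibody receptor, and Tmx4 (0.980). For Anxa2 they were Lgals4, Zfp579 and Tob1 (0.938 to 0.942), for Anxa4 Lpin2, Sec31a and Acot10 (0.930 to 0.941), and for Anxa5 Mfap3l, Tal1 and Plscr1 (0.932 to 0.963). For Anxa6 they were Tipin, Etfrf1 and Mpv17 (0.984 to 0.987), for Anxa7 Tdp1, Gcn1 and Snrnp48 (0.957 to 0.965), and for Anxa11 Slc10a3, Zfp930 and Slc37a1 (0.963 to 0.972). After the mean of each array set was removed, the values for Anxa1 were 0.972 to 0.990 and those for Anxa6 0.879 to 0.892. Gcn1, with group means of 5.05 to 5.28, lay near the lowest signals detected on an array, 5.18 to 5.45. So did Mogat2 with NUP98-CDX4, at a mean of 5.18.

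Markers of mature myeloid cells were lower where Anxa1 and Anxa3 were lower, and their part in these results was not tested. In RNA of mixed cells, fewer cells of a type and less RNA per cell cannot be told apart. The summed intensity of 13 late neutrophil markers ran from 70770 to 80110 with EGFP, 35370 to 41410 with NUP98-CDX1 and 6085 to 14430 with NUP98-CDX4. Of the 12 past the filter, 6 were lower in NUP98-CDX1 and 11 in NUP98-CDX4, with Stfa2 at -6.61, Ltf at -5.84 and Ngp at -5.34 on the log2 scale in NUP98-CDX4. The remaining 1 was not called in NUP98-CDX4. With array set as a block, 11 of the 12 were lower there and 1 was higher. With NUP98-CDX1 the late neutrophil sum was below EGFP on all 3 arrays, whereas Anxa3 was not.

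The sum of 10 mast cell markers was 14920 to 18860 with EGFP, 15510 to 18900 with NUP98-CDX1 and 5554 to 8378 with NUP98-CDX4, so EGFP and NUP98-CDX1 overlapped. Of 9 past the filter, 4 were lower in NUP98-CDX1 and 8 in NUP98-CDX4, with the proteases Cma2 at least 28.2-fold, Mcpt4 at least 16.4-fold and Cma1 at least 11.8-fold lower in NUP98-CDX4, where they were not detected on any array. The 10 monocyte and macrophage markers summed to 30730 to 39720, 21110 to 33540 and 8444 to 19630 in the same order of groups. Of these, 1 was higher and 4 lower in NUP98-CDX1 and 8 lower in NUP98-CDX4, among them Ms4a7 at -2.51 and Adgre1 at -2.06 on the log2 scale. The 7 basophil and eosinophil markers, of which Ear6 and Ccr3 were detected on no array, summed to 5657 to 9452, 2622 to 3836 and 891.2 to 1882. The late neutrophil sum and the basophil and eosinophil sum thus ran in the order of Anxa1, with no overlap between groups. The 8 stem and progenitor markers summed to 9474 to 10100 with EGFP, 12040 to 14120 with NUP98-CDX1 and 12760 to 14980 with NUP98-CDX4. Mycn was detected on no array. Of 6 past the filter, 1 was higher in NUP98-CDX1 and 3 in NUP98-CDX4, with Hoxa9 at 2.90 and Meis1 at 1.78 on the log2 scale in NUP98-CDX4. The brightest Kit probe had means of 12.03 with EGFP, 12.40 with NUP98-CDX1 and 12.08 with NUP98-CDX4, and Cd34 9.60, 9.62 and 9.99.

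Markers of other blood cells and of stroma were in part undetected. No T or NK cell marker was detected, the B cell gene Pax5 was detected on no array, and neither were Hba-a1, Alas2 and Gata1 of red cells or Col1a1, Col1a2, Col3a1 and Cdh5 of stroma and vessels. The summed level over all arrays was 169.6 to 212.8 for the 6 erythroid and 349.5 to 678.8 for the 3 B cell markers. The 6 stromal markers summed to 779.5 to 867.2 with EGFP, 929.7 to 1034 with NUP98-CDX1 and 1059 to 1260 with NUP98-CDX4. Those groups did not overlap and ran in the reverse order of Anxa1. The 6 megakaryocyte markers summed to 1474 to 2202, 1277 to 1899 and 1029 to 1273 in the same order of groups. For these, NUP98-CDX4 lay wholly below the other groups, which overlapped each other.

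**Figure D4:**
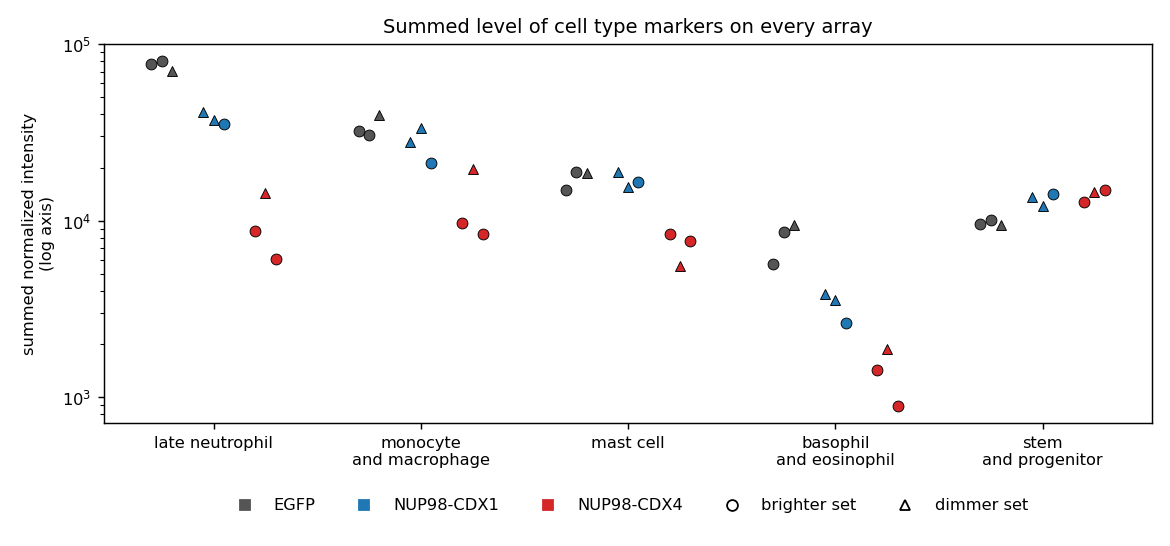
Summed normalized intensity (log axis) of 5 sets of cell type markers on each of the 9 arrays, coloured by group and shaped by array set. The late neutrophil sum is at least 70770 with EGFP and at most 14430 with NUP98-CDX4, and the mast cell sum overlaps between EGFP and NUP98-CDX1 and is lower in NUP98-CDX4.

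Genes that work with annexins were examined in 6 lists, each gene by its brightest probe, with 42 genes past the detection filter. By limma 1 of the 42 was higher in NUP98-CDX1, where 1.15% of 10018 named genes passed, and 3 were higher and 3 lower in NUP98-CDX4, where 5.84% passed. In the mean of both fusions 4 were higher and 2 lower, where 4.71% passed. The lists were chosen with earlier results of these data known, so nothing is read from these counts against the shares of all genes. The median log2 difference of the 42 genes was -0.12 in NUP98-CDX1 and -0.17 in NUP98-CDX4, against 0.03 in each over all genes. Genes with an unadjusted p under 0.05 are counted by list below. The share of all genes at that level was not counted, so nothing is read from those counts.

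Fpr2, a receptor of Anxa1 on neutrophils and monocytes, fell in NUP98-CDX4. Its log2 intensity was 11.09, 11.23 and 11.80 with EGFP, 10.16, 10.53 and 9.86 with NUP98-CDX1 and 8.27, 9.66 and 6.87 with NUP98-CDX4. The groups did not overlap, and the NUP98-CDX4 arrays spread most. Fpr2 was 8.60-fold lower in NUP98-CDX4 than with EGFP, a log2 difference of -3.10 (95% interval -4.38 to -1.83) with a limma adjusted p of 0.0142, and -1.19 in NUP98-CDX1 with an adjusted p of 0.509. The log2 difference in NUP98-CDX4 was -3.59 among arrays of the brighter set and -2.14 among those of the dimmer set, with an adjusted p of 0.052 in the latter, and without EGFP replicate 2 the adjusted p was 0.0553. The summed markers of neutrophils and of monocytes were lower on the same arrays, and their part in the Fpr2 result was not tested.

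In the list of Anxa1 receptors and the arachidonic acid pathway, 4 of 12 genes passed the filter and Fpr2 was the 1 called, in NUP98-CDX4, with 0 called in NUP98-CDX1 and 0 at an unadjusted p under 0.05 there. Alox5, the first enzyme of leukotriene synthesis, had a log2 difference of -1.38 in NUP98-CDX4 (adjusted p = 0.12) and -0.15 in NUP98-CDX1 (adjusted p = 0.909). Its partner Alox5ap and the leukotriene C4 synthase Ltc4s stood at -0.30 and 0.03 in NUP98-CDX4. The list's median log2 difference was -0.10 in NUP98-CDX1 and -0.84 in NUP98-CDX4.

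Of 10 EF-hand partners of annexins, 9 passed the filter, 0 were called in NUP98-CDX1 (1 with an unadjusted p under 0.05) and 1 in NUP98-CDX4. S100a10, the partner of Anxa2, read 9.64, 9.81 and 8.96 with EGFP, 8.70, 9.05 and 9.99 with NUP98-CDX1 and 9.18, 8.69 and 9.79 with NUP98-CDX4. The groups overlapped throughout, and the log2 differences were -0.22 and -0.25 with adjusted p of 0.848 and 0.933. S100a11, the partner of Anxa1, read 14.08, 13.86 and 14.38 with EGFP, 14.03, 14.06 and 13.87 with NUP98-CDX1 and 13.44, 13.86 and 13.51 with NUP98-CDX4. Its log2 difference in NUP98-CDX4 was -0.50 with an adjusted p of 0.204, and 0.0114 with array set as a block. S100a6, S100a1 and Sri, further calcium-binding partners, had differences of -0.83, 0.43 and -0.36 with NUP98-CDX1 and -0.50, -0.01 and -0.18 with NUP98-CDX4, and none passed. S100a6 was lower on all dimmer than on all brighter arrays, and its difference in NUP98-CDX1 was -0.38 with array set as a block. That of S100a10 changed sign there, to 0.08.

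Gca, or grancalcin, an EF-hand protein of neutrophil granules, was the 1 gene of that list called. It read 8.08, 8.18 and 8.70 with EGFP, 8.14, 8.22 and 7.42 with NUP98-CDX1 and 6.65, 7.47 and 6.63 with NUP98-CDX4. It fell 2.64-fold in NUP98-CDX4, a log2 difference of -1.40 with a limma adjusted p of 0.0294, and its other probe gave -1.58 with an adjusted p of 0.0302. The call was lost without EGFP replicate 1 (0.0606), 2 (0.0867) or 3 (0.0907) and without NUP98-CDX4 replicate 1 (0.112) or 3 (0.114). In NUP98-CDX1 the log2 difference of Gca was -0.39, with an adjusted p of 0.702.

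Among glucocorticoid-responsive genes, 1 rose and 1 fell in NUP98-CDX4. Of 11 listed genes 10 passed the filter, 0 were called in NUP98-CDX1 (6 with an unadjusted p under 0.05) and 2 in NUP98-CDX4. Tsc22d3 and Fkbp5, targets induced by glucocorticoids in blood cells, had log2 differences of -0.14 and 0.03 in NUP98-CDX1. In NUP98-CDX4 they were -0.17 and 0.01. Other listed genes moved more. Dusp1 read 8.663 to 9.053 with EGFP, 9.224 to 11.372 with NUP98-CDX1 and 9.11 to 9.498 with NUP98-CDX4. Zfp36 read 10.174 to 10.896, 10.709 to 11.995 and 11.013 to 11.446 in that order. Sgk1 read 8.411 to 9.254, 8.939 to 10.037 and 8.871 to 9.374, so its groups overlapped, as did those of Zbtb16. None of these genes was called in either fusion. Nr3c1, the glucocorticoid receptor, was detected on 3 EGFP, 1 NUP98-CDX1 and 2 NUP98-CDX4 arrays and did not pass in either fusion (adjusted p = 0.439 and 0.83). The fusion arrays that detected Nr3c1 were those of the brighter set. The list's median log2 difference was 0.55 in NUP98-CDX1 and 0.18 in NUP98-CDX4.

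Hsd11b1, the enzyme that regenerates active glucocorticoid inside cells, was the lower gene. It read 11.80, 11.67 and 11.67 with EGFP, 11.46, 11.06 and 10.42 with NUP98-CDX1 and 8.52, 9.04 and 7.81 with NUP98-CDX4. It fell 9.53-fold in NUP98-CDX4, a log2 difference of -3.25 with a limma adjusted p of 0.000914, and its 2 other probes gave -3.27 and -3.37. In NUP98-CDX1 the log2 difference was -0.73 with an adjusted p of 0.477. The call in NUP98-CDX4 held under each alternative tried, with adjusted p up to 0.0389.

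Klf9, a transcription factor and direct target of the receptor, was the higher gene. It read 9.75, 9.52 and 9.21 with EGFP, 11.09, 10.27 and 10.54 with NUP98-CDX1 and 11.04, 10.85 and 10.84 with NUP98-CDX4. It rose 2.67-fold in NUP98-CDX4, a log2 difference of 1.42 with a limma adjusted p of 0.00724, and its difference in NUP98-CDX1 was 1.14 with an adjusted p of 0.059, or 0.0181 with array set as a block. Per1, a clock gene that glucocorticoids induce, rose by 0.67 in the mean of both fusions with an adjusted p of 0.0257. That call passed under 12 of 21 alternatives. It was lost, among others, without any 1 of the EGFP arrays (0.0966, 0.141 and 0.0733) and without NUP98-CDX1 replicate 1 (0.0633). Leaving out NUP98-CDX4 replicate 1 (0.0571) or 3 (0.0519) also ended it, as did median scaling (0.146) or a replicate block (0.0636). In the single fusions its brightest probe gave 0.70 and 0.63 with adjusted p of 0.0875 and 0.0534, and its other probe 0.89 and 0.86 with adjusted p of 0.0364 and 0.0141.

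Genes of phosphatidylserine exposure and recognition, the process that Anxa5 binding reports, had median log2 differences of 0.05 in NUP98-CDX1 and -0.04 in NUP98-CDX4. Of 15 listed genes 8 passed the filter, and by the brightest probes 0 were called lower, while 1 rose with NUP98-CDX1 and 2 rose with NUP98-CDX4. With array set as a block, 3 were higher and 2 lower in NUP98-CDX4. Mfge8, a secreted bridge between phosphatidylserine and the integrins of a phagocyte, read 10.14, 10.47 and 10.68 with EGFP. It read 11.78, 12.08 and 11.46 with NUP98-CDX1 and 11.72, 12.37 and 12.01 with NUP98-CDX4, all above EGFP. Mfge8 rose 2.54-fold in NUP98-CDX1, a log2 difference of 1.34 with a limma adjusted p of 0.0363, and 3.04-fold in NUP98-CDX4, at 1.60 and 0.00459. Its other probe passed in both as well, at 1.34 (0.0124) and 1.55 (0.00145). The call in NUP98-CDX1 was lost without any 1 of the EGFP arrays (0.151, 0.17 and 0.0572), without NUP98-CDX1 replicate 1 (0.137) or 2 (0.14) and without NUP98-CDX4 replicate 3 (0.054).

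Plscr3, a scramblase family member of mitochondria, rose 1.77-fold in NUP98-CDX4, a log2 difference of 0.83 with a limma adjusted p of 0.0185. Its level was low, at 5.88 to 6.24 with EGFP and 6.81 to 6.96 with NUP98-CDX4. The call was lost without EGFP replicate 2 (0.0911) or 3 (0.0543) and without NUP98-CDX4 replicate 1 (0.0658), 2 (0.0539) or 3 (0.0582). Plscr1, a phospholipid scramblase induced by interferon, had log2 differences of 0.79 and 0.48 with adjusted p of 0.169 and 0.352. The receptors Axl and Mertk, which recognise phosphatidylserine through bridging proteins, did not pass in NUP98-CDX4 (adjusted p = 0.109 and 0.397). Axl had a log2 difference of -1.19, and Mertk was detected on 1 EGFP, 2 NUP98-CDX1 and 1 NUP98-CDX4 array. These were the arrays of the dimmer set, and no array of the brighter set detected Mertk.

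The probes of Stab1, a scavenger receptor of macrophages that binds phosphatidylserine, disagreed. The brightest, ILMN_2544343, gave log2 differences of -0.27 in NUP98-CDX1 and -0.26 in NUP98-CDX4, with adjusted p of 0.708 and 0.768. ILMN_2727432, detected on all arrays, was lower in NUP98-CDX4 at -1.33 with a limma adjusted p of 0.00453, and in the mean of both fusions at -1.0 (0.0103). ILMN_1231355, detected on 3 EGFP, 2 NUP98-CDX1 and 1 NUP98-CDX4 array, gave -1.56 in NUP98-CDX4 (0.0195) and -1.26 in the mean (0.0298). In NUP98-CDX1 these probes had adjusted p of 0.185 and 0.248. Stab1 therefore counts as not called by the rule of the brightest probe and as lower in NUP98-CDX4 by its other probes.

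In the list of membrane repair and cortical scaffold, 8 of 12 genes passed the filter and 0 were called in either fusion by limma on the brightest probes, with 0 at an unadjusted p under 0.05 in NUP98-CDX1 and 1 in NUP98-CDX4. That 1 was Ahnak, the giant scaffold that binds the complex of Anxa2 and S100a10, at -0.88 in NUP98-CDX1 and -1.47 in NUP98-CDX4 with adjusted p of 0.488 and 0.0857. Another Ahnak probe, ILMN_3079919, did pass, at -1.37 in NUP98-CDX4 (adjusted p = 0.0372) and -1.26 in the mean of both fusions (0.0325), while ILMN_1258578 did not, at -0.73 in NUP98-CDX4 (0.602). The calpain subunit Capns1 stood at -0.13 in NUP98-CDX4. In the plasminogen list 3 of 8 genes passed the filter and 0 were called in either fusion, again with 0 and 1 at an unadjusted p under 0.05. Plaur, the urokinase receptor, had a log2 difference of -0.74 in NUP98-CDX4 (adjusted p = 0.159), and the plasminogen receptor Plgrkt one of -0.20 (adjusted p = 0.83).

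**Figure D5:**
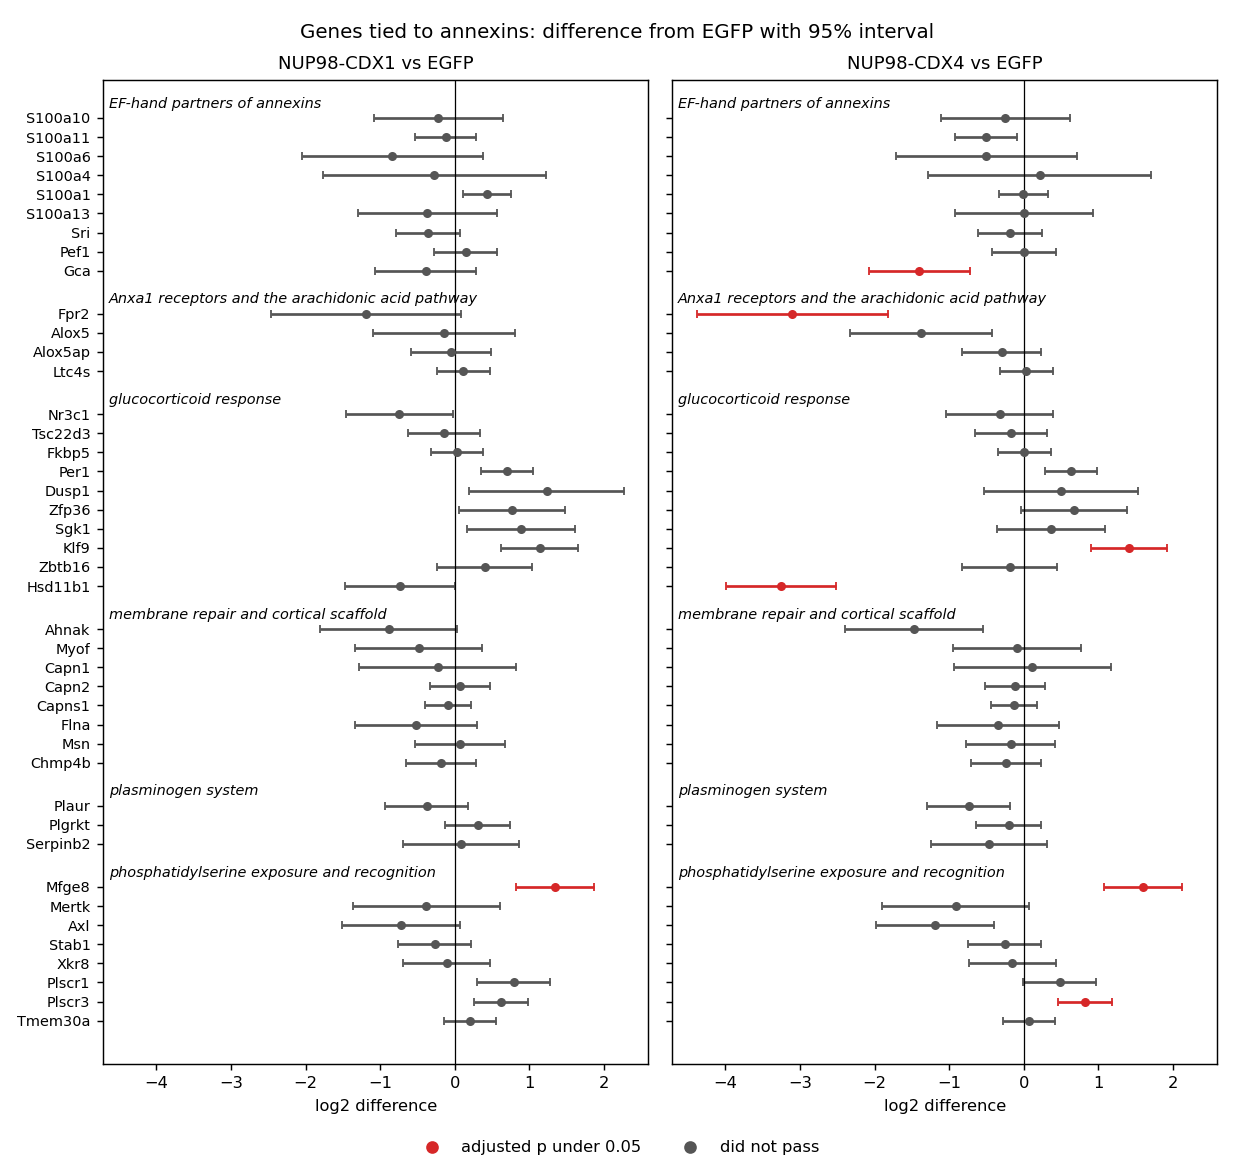
Log2 difference from EGFP with 95% interval for the 42 genes of the 6 lists past the filter, in NUP98-CDX1 (left) and NUP98-CDX4 (right), with red for a limma adjusted p under 0.05. Mfge8 is red in both panels, and Gca, Fpr2, Klf9, Hsd11b1 and Plscr3 are red in NUP98-CDX4.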

How the data were processed

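The intensity values are probe signals of single-colour Illumina bead arrays that the authors deposited without normalization, exported from GenomeStudio per the submitters' processing notes, with no version named there. Detection p-values are those the authors deposited with the signals. Their processed intensities, of unstated normalization, served as an alternative and matched the raw columns (Spearman at least 0.991 with the own column, at most 0.953 with another).

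The neqc function of limma 3.58.1 (R 4.3.3, and the package data.table, version 1.17.8) corrected the background, with negative controls inferred from detection p and an offset of 16, normalized by quantiles and took log2. The filter kept the 19472 probes whose detection p was below 0.05 on 3 or more arrays. A linear model with 1 mean for each group was fitted to these, and Benjamini-Hochberg adjusted p-values below 0.05 were called. Symbols came from the platform annotation, with 1 symbol for 34885 probes, several for 18 and none for 10378, and 34807 matched RefSeq by Entrez number.

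The members and lists were chosen with earlier results of these data known. All member probes are named, from each partner list each called gene and up to 4 with the smallest adjusted p, from marker lists the 3 largest differences, and the 5 genes most like Anxa1 and 3 most like each other member. Some of these are left out of the text, and a few others named beside them, such as Tsc22d3, Fkbp5, Alox5ap and Capns1, were picked after their values were seen. Alternatives changed the offset, background correction, normalization, source of values, filter, unit tested, variance model, array set, replicate block and left out each array. Array sets come from the signals of undetected probes, not from the labels, which name no batch. Whether the replicate numbers of the labels pair the samples cannot be told. Deviations of same-numbered arrays correlated between -0.78 and 0.66, and the sign followed array set. The pipeline was tested on simulated data.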

Additional observations from a re-analysis of the deposited data

How the results depend on the processing

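The numbers of probes called changed with the processing. In NUP98-CDX1, NUP98-CDX4 and the mean of both fusions against EGFP, 175, 944 and 764 of all probes passed, and a block for array set gave 939, 2943 and 2610. The brighter set alone gave 72 and 1448 in the single fusions, the dimmer set alone 6, 143 and 94, a replicate block 45, 572 and 421, and no detection filter 105 in NUP98-CDX1. Leaving out each array in turn gave 31 to 194, 443 to 968 and 286 to 751. Among member probes none passed in NUP98-CDX1 by limma under any alternative or with any array left out. In NUP98-CDX4, 1 passed in the main setting, 2 with the authors' processed values, in the brighter set and with the array set block, and 0 with no detection filter, within the dimmer set and with the replicate block. Leaving out each array gave 0 to 2. In the mean of both fusions 1 passed, 0 in the dimmer set alone and 3 with the array set block. Partner genes called in NUP98-CDX1 were 1, then 2 with an offset of 50, no background correction, the authors' values or trended robust variances, 7 with array set as a block, and 0 with no detection filter, within either set or with the replicate block, and 0 to 1 with arrays left out. In NUP98-CDX4 they were 6, then 14 with the array set block, 10 in the brighter and 1 in the dimmer set alone, and 3 to 6 with arrays left out. Fewer arrays and other sets of tested probes enter some of these fits, and otherwise the cause was not tested.

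The Anxa1 difference in the mean of both fusions ran from -0.89 to -0.72 over 21 alternatives. Where arrays are left out or array sets enter, that contrast is no longer orthogonal to the difference the genes were chosen on. The number of alternatives it passed is therefore not given as support. Anxa3 in NUP98-CDX4 by its first probe ran from -1.14 to -0.84 and passed under 11 of 21. It was lost with no detection filter (adjusted p = 0.0802), within the dimmer set (0.151) and with the replicate block (0.109). The second probe, ILMN_3135781, passed under 4 of 20, with the authors' values (0.0385), within the brighter set (0.0228), with the array set block (0.0014) and without NUP98-CDX1 replicate 3 (0.0388). Within the dimmer set, with 1 EGFP array, the calls in NUP98-CDX4 on Klf9 (0.194), Mfge8 (0.0703), Gca (0.109) and Plscr3 (0.221) were lost. A replicate block ended those on Gca (0.0698) and Plscr3 (0.0519) and that on Mfge8 in NUP98-CDX1 (0.0897). No detection filter ended those on Gca (0.0754), Fpr2 (0.0507) and Mfge8 in NUP98-CDX1 (0.0811).

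Differences that never passed changed sign as follows. Anxa11 in NUP98-CDX4 became -0.033 with the authors' values and -0.13 within the dimmer set, and ran from -0.092 to 0.10 with arrays left out. In the mean of both fusions Anxa11 became -0.045 within the dimmer set and ran from -0.012 to 0.18. Anxa6 became -0.054 with the array set block and -0.16 within the dimmer set in NUP98-CDX1, and ran from -0.35 to 0.18 in NUP98-CDX4 with arrays left out. In the mean of both fusions Anxa6 became -0.083 with the block, -0.0093 within the brighter and -0.20 within the dimmer set, and ran from -0.11 to 0.34. The second Anxa3 probe became -0.059 in NUP98-CDX1 within the brighter set. Anxa7 became -0.0088 in NUP98-CDX1 within the dimmer set, and ran from -0.050 to 0.23 in NUP98-CDX4 with arrays left out.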

Other observations

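Of the other 4 annexin genes on the platform, Anxa8, Anxa10 and Anxa13 were detected on no array by any probe. Anxa9, an annexin that lost its calcium-binding sites, read 8.05, 7.71 and 8.05 with EGFP, 8.60, 8.65 and 8.42 with NUP98-CDX1 and 8.19, 8.49 and 8.53 with NUP98-CDX4. All fusion arrays lay above all EGFP arrays. The log2 differences were 0.62 and 0.47, and 0.55 in the mean of both fusions, with limma adjusted p of 0.161, 0.195 and 0.0791, so none passed. With array set as a block the adjusted p were 0.0466, 0.0386 and 0.0158.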
